A study of Danio rerio with 9 samples.

Results

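Of the 24614 genes measured in whole zebrafish embryos, 6 are described here: the selenoprotein genes fep15, gpx4a, gpx4b, gpx1a and gpx1b, and alkbh8, which encodes an enzyme that modifies tRNA. They were chosen by name, from 8 gene symbols, with earlier results of these data in view, so their values are descriptions and their tests support nothing beyond themselves. The other symbols of the choice, sephs2 and secisbp2, matched no gene symbol in the table. The gene listed as sps2 has the symbol sephs3 in an NCBI table, with sephs2 as an older name, so its match to the choice is uncertain. It is described with the other selenoproteins, and secisbp2 was not analysed here.

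Whole embryos (the labels give whole body as the tissue, and no strain) received a control morpholino, a morpholino to dhps or a morpholino to eif5a1/2, with 3 libraries of polyadenylated RNA in each group. Morpholinos are antisense oligomers that block translation or splicing of a transcript. The treatment notes place RNA extraction 24 hours after the morpholino, while the series design counts the 24 hours from fertilization. Deoxyhypusine synthase, the product of dhps, starts the modification that turns a lysine of the translation factor eIF5A into hypusine, so the comparisons set targeting of the enzyme beside targeting of its substrate. No label says whether the 3 libraries of a group came from separate clutches or how many embryos each held, so p-values measure the spread between these samples, which may be technical.

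Selenoproteins carry selenocysteine, an amino acid inserted at a UGA codon that otherwise ends translation. Insertion needs a dedicated tRNA, a hairpin in the 3′ part of the mRNA, a protein that binds this hairpin and a special elongation factor. In mouse, Alkbh8 methylates the wobble uridine of this tRNA, among others, and the synthesis of several selenoproteins depends on it. The glutathione peroxidases encoded by gpx1 and gpx4 genes use selenocysteine to reduce peroxides, and the mRNAs of some selenoproteins are degraded when selenocysteine is scarce.

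Each library held between 15952644 and 17482536 reads over all genes. Levels are given as CPM, in which read counts are set to a common library size after TMM scaling, which sets most genes level between libraries. They are also given as the authors' TPM, which were divided by transcript length and were not TMM-scaled here. CPM and TPM thus differ by this scaling as well as by length. In 1 edgeR quasi-likelihood fit to all 9 libraries, 17031 genes were tested, and a gene is called when its Benjamini-Hochberg adjusted p is under 0.05. The targeted genes bear on the labels. In the eif5a1/2 group the mean level of eif5a was 227 ± 12.7 CPM (SD, n = 3), against 1363 ± 169 CPM in the controls. The levels of eif5a2 overlapped, ranging from 147 to 283 CPM against 215 to 368 CPM. The dhps transcript stood at 9.38 ± 1.02 CPM in the dhps group and 14.5 ± 1.35 CPM in the controls (edgeR adjusted p = 0.0508). On the TPM scale these groups overlapped, at 5.81 ± 0.929 TPM in the dhps group and 5.99 ± 2.04 TPM in the controls. Libraries also differed in how reads spread over short and long genes. The length slope of a library, meaning the change of its log2 level relative to the mean of all libraries per doubling of gene length, was between -0.137 and -0.0616 in controls 1 and 3 and in eif5a1/2 1 and 3. It was between 0.0503 and 0.159 in control 2, eif5a1/2 2 and the dhps libraries. Control 2 and eif5a1/2 2 thus stood apart from their own groups and with the dhps group, and results are given with and without them where they move.

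The transcript of fep15 was several times as abundant in controls as in the dhps group. The gene encodes a selenoprotein of the endoplasmic reticulum, found in fish and related to the mammalian 15-kDa selenoprotein. Its levels were 6.94, 3.83 and 7.30 CPM in controls 1 to 3. They were 0.546, 0.800 and 1.26 CPM in the dhps libraries, which rest on 11, 15 and 24 reads, and 4.33, 1.64 and 3.33 CPM in the eif5a1/2 libraries. Every dhps library lay below every library of the other groups, and the eif5a1/2 values overlapped with the controls, since eif5a1/2 1 and control 2 were of similar level. Relative to control, the log2 fold change in the dhps group was -2.78 ± 0.45 (SE), a 6.88-fold difference (edgeR adjusted p = 0.0200). In the eif5a1/2 group it was -0.97 ± 0.41 (edgeR adjusted p = 0.526), and eif5a1/2 exceeded dhps by 1.81 ± 0.45 (edgeR adjusted p = 0.0880).

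The difference in fep15 between dhps and control was larger than the spread between replicates. Its call was not stable when single libraries were left out. Over all 22 alternative settings, those with single libraries left out included, the call held in 16. With each of the 9 libraries left out in turn the log2 fold change ran from -3.15 to -2.53, and it passed the threshold in 3 of 9 cases (edgeR adjusted p 0.00393 to 0.116), those without control 2, eif5a1/2 1 or eif5a1/2 2. Without both control 2 and eif5a1/2 2 it was -3.03, past the threshold. The fit that held the length slope as a covariate gave -2.07, also past it. Control 2 held the lowest fep15 level of the controls. Both fits also called several times as many of all genes as the main fit, as counted in the closing section. These calls are therefore not read as support for the difference in fep15. On the TPM scale the controls held 9.49, 8.13 and 8.83 TPM of fep15, the dhps libraries 1.37, 1.77 and 2.90 TPM, and the eif5a1/2 libraries 5.93, 4.43 and 5.73 TPM. On that scale all 3 groups were separate, with eif5a1/2 between the others. The share of all genes so separated in TPM is not given here, so nothing further is read from this. In a fit of eif5a1/2 and control alone, paired by replicate number, the log2 fold change of fep15 was -0.99 and passed the threshold (edgeR adjusted p = 0.0316). That paired fit was added after the data were seen, and it called many more of all genes than the main fit. Its call is therefore not read as support for a difference in fep15 between eif5a1/2 and control. The authors' deposited table gives fep15 a log2 fold change of -2.80 with q = 2.21e-08 in dhps against control, and 1.84 with q = 0.0293 in eif5a1/2 against dhps.

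**Figure D1:**
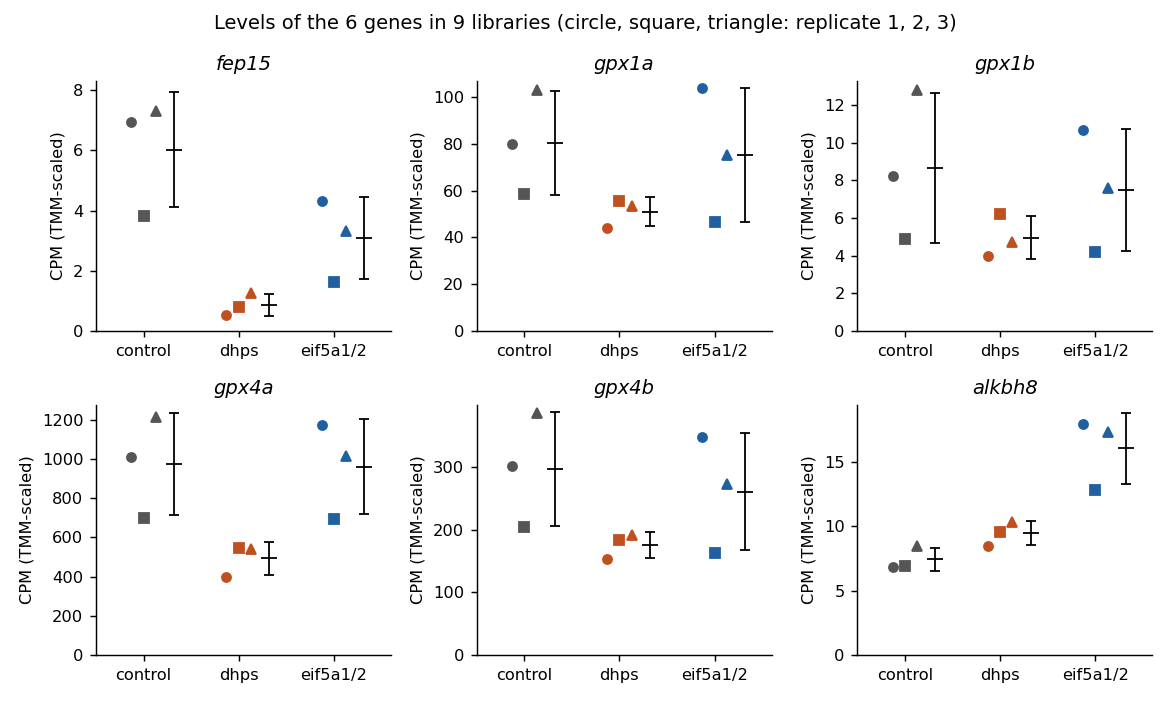
CPM (vertical axis, from 0) of each of the 6 genes in the 9 libraries by morpholino group, with circle, square and triangle for replicates 1 to 3 and a bar for the mean ± SD (n = 3). The 3 dhps libraries of fep15 lie at 0.546 to 1.26 CPM, below all others, and the 3 eif5a1/2 libraries of alkbh8 lie at 12.8 to 17.9 CPM, above all others.

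The gpx4 genes encode the peroxidase that reduces lipid hydroperoxides within membranes, and gpx4a was the most abundant of the 6 transcripts per length, at 851.5 ± 33.2 TPM in controls (SD, n = 3). Its levels were 1012, 698 and 1215 CPM in the controls and 397, 544 and 539 CPM in the dhps libraries. They were 1172, 696 and 1015 CPM in the eif5a1/2 libraries. All dhps libraries lay below all others, and the lowest control and the lowest eif5a1/2 library were the replicates numbered 2, with near-equal values. The log2 fold change of gpx4a was -0.98 ± 0.26 in dhps against control (edgeR adjusted p = 0.117) and 0.96 ± 0.26 in eif5a1/2 against dhps (edgeR adjusted p = 0.120). In eif5a1/2 against control it was -0.02 ± 0.26 (edgeR adjusted p = 0.989).

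For gpx4a the tools differed in their call. DESeq2 gave dhps against control an adjusted p of 0.00627, and the authors' deposited table gives a log2 fold change of -0.99 with q = 0.000648. With the length slope as a covariate the log2 fold change was -0.54, past the threshold (edgeR adjusted p = 0.00370), and on the TPM scale it was -0.34. Both DESeq2 and the length slope fit called several times as many of all genes as the main fit, as counted in the closing section. Over all 22 alternative settings gpx4a passed the threshold in dhps against control in 5. Its TPM values were 815, 881 and 858 in controls, 588, 709 and 730.2 in dhps and 939, 1105 and 1030 in eif5a1/2. The 3 groups were again separate in TPM, while eif5a1/2 and control overlapped in CPM. The 2 scales differ by the TMM scaling as well as by length. Again no share of all genes is given for TPM, so nothing further is read from this separation.

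The paralogue gpx4b was lower in level, at 265.8 ± 15.5 TPM in controls. Its levels were 301, 204 and 386 CPM in controls, 153, 183 and 191 CPM in dhps and 347, 163 and 273 CPM in eif5a1/2. The dhps libraries lay below the controls, and eif5a1/2 2 lay among the dhps libraries. The log2 fold change of gpx4b was -0.76 ± 0.29 in dhps against control (edgeR adjusted p = 0.217), and -0.10 on the TPM scale. The authors' deposited table gives gpx4b a log2 fold change of -0.76 with q = 0.0211 there. The expected counts of both gpx4 paralogues were whole numbers in all 9 libraries, so these values show no reads divided between the pair. How the authors' estimation assigned any reads that match both genes is not stated in the sources used here.

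The gpx1 genes encode the soluble glutathione peroxidase of the cytosol. Their transcripts were at 61.2 ± 4.53 TPM for gpx1a and 7.62 ± 1.64 TPM for gpx1b in controls. In the order of levels per length gpx1b and fep15 (8.82 ± 0.680 TPM) were neighbours that overlapped, and alkbh8 was lowest at 1.88 ± 0.433 TPM. The levels of gpx1a were 79.7, 58.4 and 103 CPM in controls, 43.9, 55.7 and 53.5 CPM in dhps and 104, 46.6 and 75.3 CPM in eif5a1/2. The dhps libraries were below the controls with a narrow gap to control 2, and eif5a1/2 2 was again among the dhps libraries. The log2 fold change of gpx1a in dhps against control was -0.65 ± 0.29 (edgeR adjusted p = 0.253). On the TPM scale the group means were 61.2 ± 4.53 in controls and 61.1 ± 3.74 in dhps (SD, n = 3). TPM lack the TMM scaling. With library totals alone, which also lack it, the median log2 fold change of all genes in dhps against control was 0.36. No such median is given for TPM, so equal means there are not read as the absence of a difference.

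The levels of gpx1b were 8.22, 4.88 and 12.8 CPM in controls, 3.97, 6.19 and 4.71 CPM in dhps and 10.7, 4.22 and 7.60 CPM in eif5a1/2. All 3 groups overlapped. Its log2 fold change was -0.79 ± 0.40 in dhps against control (edgeR adjusted p = 0.296), and -0.03 once the length slope was a covariate. Neither gpx1 gene passed the threshold in any comparison with all 9 libraries in the edgeR fit, and both passed in the comparisons with dhps once control 2 and eif5a1/2 2 were left out. The authors' deposited table gives q = 0.0515 for gpx1a and q = 0.210 for gpx1b in dhps against control.

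**Figure D2:**
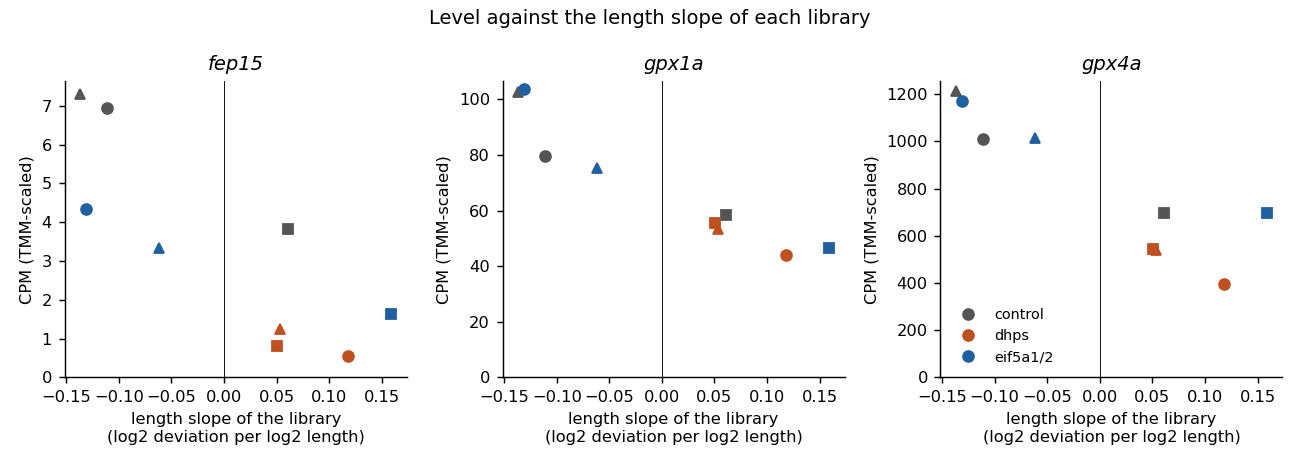
CPM (vertical axis, from 0) of fep15, gpx1a and gpx4a against the length slope of each library (horizontal axis, log2 deviation per log2 length), with 1 point per library coloured by group. Control 2 and eif5a1/2 2, with positive slopes, sit below their own groups for all 3 genes, while the dhps libraries of fep15 sit lower than both.

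How far the peroxidase genes differed between dhps and control moved with the way libraries were set level. The log2 fold change in dhps against control, without control 2 and eif5a1/2 2, was -1.17 for gpx4a, -0.97 for gpx4b, -1.08 for gpx1b and -0.84 for gpx1a, and all 4 were then past the threshold (edgeR adjusted p 0.000103 to 0.00312). All 4 also passed there in eif5a1/2 against dhps (edgeR adjusted p 0.000211 to 0.0150). Control 2 and eif5a1/2 2 were left out because they stood with the dhps group in length slope. That fit also called many times more of all genes in both comparisons with dhps, as counted in the closing section. These calls are therefore not read as support for a difference in the peroxidase genes. With the length slope as a covariate the same log2 fold changes were -0.54, -0.19, -0.03 and -0.11. Library totals alone moved the median of all genes to 0.36, and gpx4a then stood at -0.58 and gpx1a at -0.24. The part of the length slope in these differences was not tested. The log2 fold change of all 5 selenoprotein genes was negative under these settings, at values that for the gpx1 genes came close to 0, and that of gpx1b was 0.10 with the length slope and the replicate block together.

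**Figure D3:**
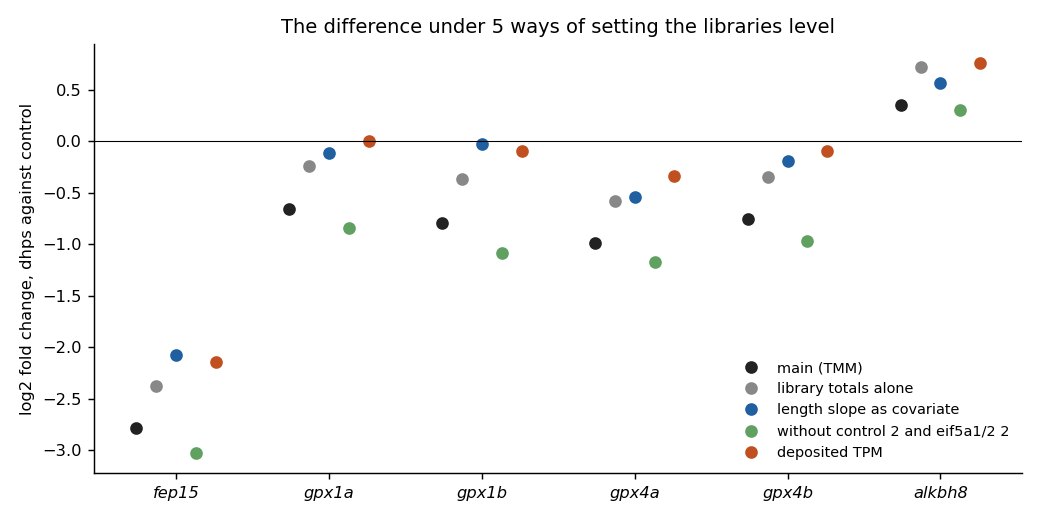
Log2 fold change in dhps against control (vertical axis) for each of the 6 genes under 5 ways of setting libraries level, one colour each. Values for fep15 run from -3.03 to -2.07, while those of gpx1a run from -0.84 to close to 0.

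The enzyme encoded by alkbh8 carries a methyltransferase that acts on the wobble uridine of tRNAs, and its transcript had 2.16 times as many reads, relative to library size, in the eif5a1/2 group as in controls. Its levels were 6.86, 6.92 and 8.47 CPM in controls and 8.49, 9.55 and 10.3 CPM in dhps. They were 17.9, 12.8 and 17.3 CPM in eif5a1/2, from 232 to 276 reads. The 3 groups did not overlap, though the highest control and the lowest dhps library differed by little. The log2 fold change was 1.11 ± 0.16 in eif5a1/2 against control (edgeR adjusted p = 0.0457), 0.35 ± 0.17 in dhps against control (edgeR adjusted p = 0.270) and 0.76 ± 0.16 in eif5a1/2 against dhps (edgeR adjusted p = 0.0520).

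This call on alkbh8 lies close to the threshold. With 1 library left out the log2 fold change ran from 1.02 to 1.25 and passed in 1 of 9 cases, the one without eif5a1/2 2 (edgeR adjusted p 0.0137 to 0.294 over the 9). With replicate number as a block it was 1.11 with an edgeR adjusted p of 0.0780 in all 9 libraries, while the paired fit of the 2 groups alone gave 0.00344. The paired fit, added after the data were seen, called many more of all genes than the main fit, so its value is not read as support. The authors' deposited table gives 1.12 with q = 0.00247 for alkbh8 in eif5a1/2 against control.

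On the TPM scale, which lacks the TMM scaling of CPM, the groups stood in another order. The controls held 1.65, 2.38 and 1.61 TPM of alkbh8, the dhps libraries 3.14, 3.03 and 3.42 TPM, and the eif5a1/2 libraries 2.33, 3.33 and 2.88 TPM. The eif5a1/2 libraries overlapped with both other groups, and the log2 fold change against control was 0.58 (limma adjusted p = 0.827). Counts and TPM of the same library differ only by transcript length and a library factor. The length that the authors' values imply for alkbh8 was therefore computed, after its values had been seen.

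The implied length of alkbh8, set to a mean of 1 in controls, ran from 0.937 to 1.03 in controls, 1.12 to 1.15 in dhps, and 1.71 to 1.72 in eif5a1/2. All 3 eif5a1/2 libraries were alike in it, eif5a1/2 2 included. Over 9506 genes with at least 1 TPM and 10 reads in every library, its log2 difference was 0.78 ± 0.04 in eif5a1/2 against control (limma adjusted p = 0.00176). It was the single gene called among these (0.0105% of genes) and had the largest difference of them. It was also the single gene called in eif5a1/2 against dhps, by 0.59 ± 0.04 (limma adjusted p = 0.0110). In dhps against control the difference was 0.19 ± 0.04 (limma adjusted p = 1.00). With a minimum of 0.5 or 0.1 TPM, alkbh8 was still the single gene called in both comparisons with eif5a1/2. It was the one furthest from 0 only in eif5a1/2 against dhps at 0.5 TPM. At either minimum another gene, not called, differed by 1.75 in eif5a1/2 against control, and at 0.1 TPM one differed by 0.81 in eif5a1/2 against dhps. The other 5 genes had log2 length differences no further from 0 than -0.00723.

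Divided by the implied length, the reads of alkbh8 differed less between groups. In arbitrary units they were 134, 123 and 150.3 in controls, 138, 152 and 166 in dhps, and 191, 138 and 186 in eif5a1/2. The eif5a1/2 libraries then overlapped with the other groups, through eif5a1/2 2. The log2 difference per length in eif5a1/2 against control was 0.33 ± 0.16 (limma adjusted p = 0.545). It was 0.17 ± 0.16 in dhps against control (limma adjusted p = 0.513) and 0.16 ± 0.16 in eif5a1/2 against dhps (limma adjusted p = 0.634). These values keep the TMM scaling, and the estimates stood in the order of groups seen in CPM, not in TPM. An implied length is an average over the transcript models the authors' estimation weighed, and an NCBI table of the assembly GRCz12tu lists 2 models for alkbh8. The sources used here do not give the models behind the authors' values, and no read positions were analysed.

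**Figure D4:**
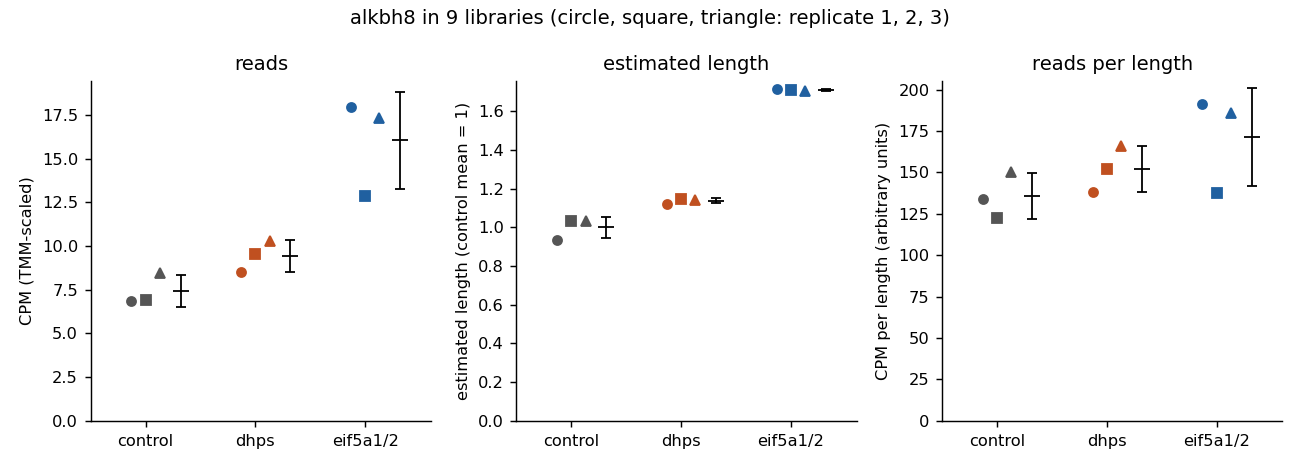
Panels for alkbh8 in the 9 libraries by group: CPM, the length implied by counts and TPM (control mean = 1), and CPM per length, each with the mean ± SD (n = 3). The eif5a1/2 libraries stand together at 1.71 to 1.72 in length, and their CPM per length overlap with the other groups.

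Counted together, 1 of the 6 genes was called in dhps against control (fep15, lower), where 1.29% of all genes were called, 0.611% as higher and 0.681% as lower. For eif5a1/2 against control 1 of 6 was called (alkbh8, higher), beside 0.153% of all genes, 0.0646% as higher and 0.0881% as lower. Between eif5a1/2 and dhps edgeR called 0 of the 6, beside 1.77% of all genes (0.934% higher, 0.84% lower). DESeq2 called 3 and limma-voom 0. Groups did not overlap for 5 of the 6 in dhps against control (4 lower, 1 higher), where 30.9% of all genes did not (15.7% lower, 15.2% higher). For eif5a1/2 against control this held for 1 of 6, which was higher, beside 12.4% of all genes (5.78% higher, 6.65% lower). For eif5a1/2 against dhps it held for 3 of 6, all higher, beside 20.9% (10.8% higher, 10.1% lower). An unadjusted p under 0.05 was reached in edgeR by 4, 2 and 3 of the 6 in the order of these comparisons, beside 19.5%, 9.02% and 14.5% of all genes. The median log2 fold change of the 6 genes was -0.77, -0.14 and 0.67 in the order of the comparisons above, beside a median of all genes of 0.00, 0.01 and 0.00. The comparisons share libraries, and the genes were chosen with these values known, so nothing is read from these counts.

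The other selenoprotein genes are a list of 33 names, of which 31 were found and 27 tested. The 4 left out (gpx2, dio2, dio3a and fam213ab) had at most 12 reads in a library. In dhps against control edgeR called 0 of the 27, with 2 lower at an unadjusted p under 0.05, and neither DESeq2 nor limma-voom called any. Their log2 fold changes had a median of -0.16 and ranged from -0.76 to 0.96, with 10 positive and 17 negative. Under library totals alone 23 of the 27 were positive, with a median of 0.22 beside 0.36 for all genes. That scaling raises all genes alike, so it adds nothing on the place of the list among them. With the length slope as a covariate 17 were positive and 10 negative, with a median of 0.04.

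The smallest adjusted p-values in dhps against control belonged to selk, -0.76 ± 0.32 (edgeR adjusted p = 0.240), and seph, -0.71 ± 0.31 (edgeR adjusted p = 0.250). Next were selj at -0.33, sepn1 at -0.32 and selo at 0.22 on the log2 scale. The gene selk encodes a membrane selenoprotein of the endoplasmic reticulum, and sepn1 one linked to muscle disease in humans. The groups did not overlap for 7 of the 27. In dhps 3 of these were lower (selk, seph and sepn1) and 4 higher (selo, dio1, sell and selt2), beside 15.7% and 15.2% of all genes. Of these, selt2 was named after its values were seen. The authors' deposited table gives selk q = 0.0187 and seph q = 0.0201.

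In eif5a1/2 against control edgeR again called 0 of the 27, with 1 higher at an unadjusted p under 0.05, while DESeq2 called 1 and limma-voom 0. That gene was sepp1a, which encodes the secreted selenoprotein P that carries selenium between tissues. Its level ranged from 301 to 364 CPM in controls, 350.5 to 436 CPM in dhps and 437 to 542 CPM in eif5a1/2. The eif5a1/2 libraries lay above both other groups, though the lowest of them and the highest dhps library were almost equal. Of all genes, 5.78% were higher without overlap in eif5a1/2 than in control, and 10.8% than in dhps. The log2 fold change of sepp1a over control was 0.61 ± 0.15 (edgeR adjusted p = 0.225, DESeq2 adjusted p = 0.00210). The authors' deposited table gives sepp1a q = 0.0355 there. Then came selo (0.23), sps2 (-0.40), dio3b (-0.68) and sepw2a (-0.30), with edgeR adjusted p between 0.576 and 0.653. Between eif5a1/2 and dhps 0 of the 27 were called by edgeR, DESeq2 or limma-voom, and edgeR gave 3 an unadjusted p under 0.05 (2 higher, 1 lower). The furthest of these was sell, -1.52 ± 0.60 (edgeR adjusted p = 0.281).

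The gene sps2 encodes selenophosphate synthetase, itself a selenoprotein that makes the selenium donor for selenocysteine. Its levels were 109, 76.0 and 115 CPM in controls, 73.2, 87.6 and 84.8 CPM in dhps and 90.5, 63.3 and 73.1 CPM in eif5a1/2. The groups overlapped in all 3 comparisons. Its log2 fold change was -0.29 ± 0.19 in dhps against control (edgeR adjusted p = 0.380) and -0.40 ± 0.19 in eif5a1/2 against control (edgeR adjusted p = 0.577).

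**Figure D5:**
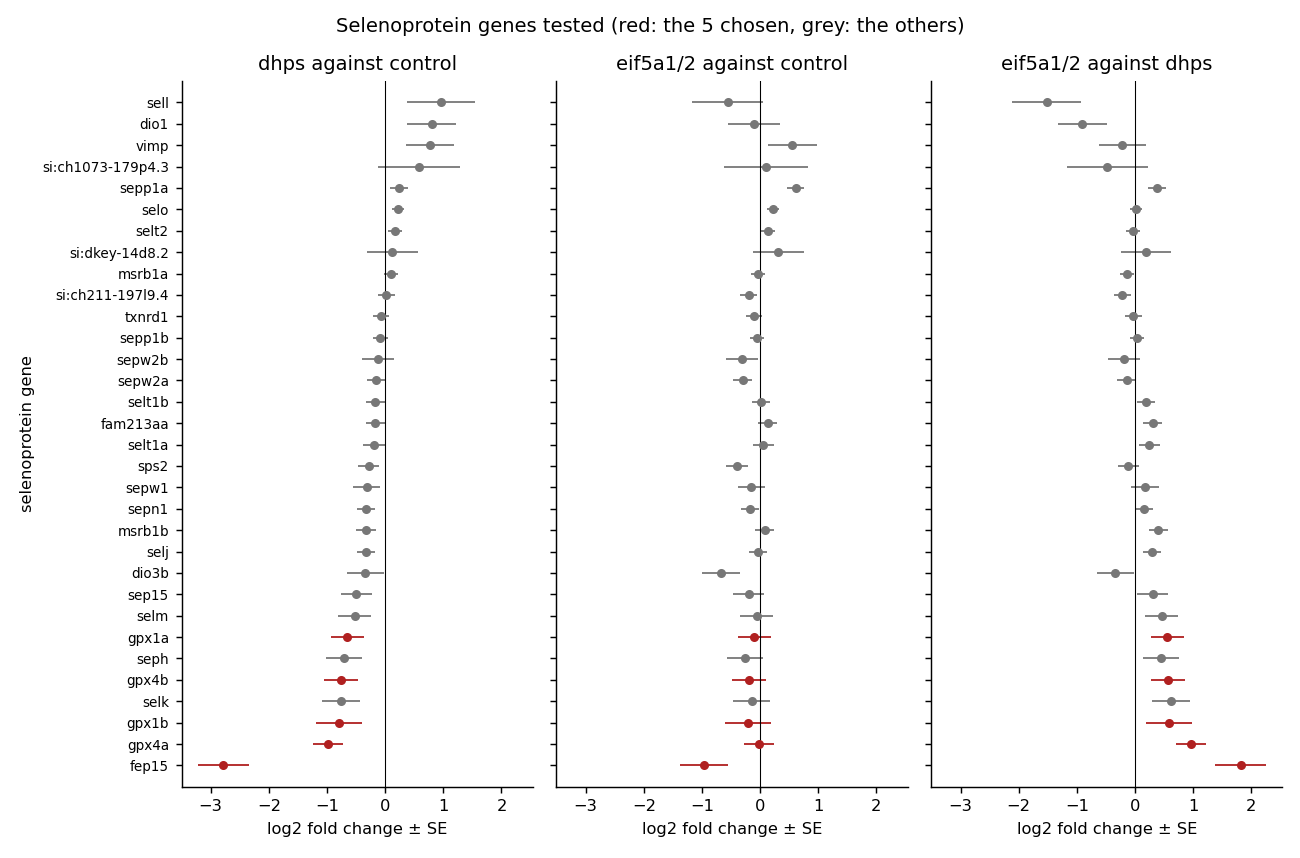
Log2 fold change ± SE (horizontal axis) of the selenoprotein genes tested, in rows ordered by dhps against control, with 1 panel per comparison, the 5 chosen genes in red and the others in grey. In dhps against control fep15 lies at -2.78, and the grey genes run from -0.76 to 0.96.

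Genes of the selenocysteine machinery (9 of 9 tested, among them sephs1, the synthetase paralogue without selenocysteine, and sars, the enzyme that charges the tRNA with serine) were called in none of the comparisons by edgeR, DESeq2 or limma-voom. At an unadjusted p under 0.05 edgeR had 1 of them, sars in eif5a1/2 against control, at -0.38 ± 0.14 (edgeR adjusted p = 0.428). The median log2 fold change of the list was -0.16, -0.01 and 0.13 in dhps against control, eif5a1/2 against control and eif5a1/2 against dhps.

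Genes that modify the tRNA anticodon loop, the process in which alkbh8 takes part, were called in none of the comparisons either (13 of 13 tested, by edgeR, DESeq2 or limma-voom). They include the Elongator subunit elp2, whose complex lays down the group that ALKBH8 methylates, and trit1, which adds an isopentenyl group beside the anticodon. In dhps against control trit1 (0.52 ± 0.16, edgeR adjusted p = 0.149) and elp2 (-0.37) were among those with an unadjusted p under 0.05. Against control in eif5a1/2, ctu1, a thiolation enzyme, had one at 0.53 ± 0.21 (edgeR adjusted p = 0.482), and in eif5a1/2 against dhps trit1 had one at -0.53 ± 0.16 (edgeR adjusted p = 0.145). The list's median log2 fold changes were 0.01, 0.03 and 0.06. In eif5a1/2 against control these 13 ranged from -0.31 to 0.53, beside 1.11 for alkbh8, or 0.33 once divided by its implied length. Since alkbh8 was chosen with its value known, nothing is read from its place beside this list.

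Of 21 genes of the glutathione and thioredoxin systems outside the selenoprotein list, 18 were tested and edgeR and limma-voom called 0 in each comparison. In dhps against control an unadjusted p under 0.05 was reached by 1 gene with a higher and 3 with a lower level, beside 19.5% of all genes. DESeq2 called prdx2, a cytosolic peroxiredoxin abundant in red cells, as lower. Its level was 296 ± 40.2 CPM in controls and 197 ± 16.5 CPM in dhps (SD, n = 3), a log2 fold change of -0.59 ± 0.16 (edgeR adjusted p = 0.120). Against control, eif5a1/2 had 1 lower at an unadjusted p under 0.05, beside 9.02% of all genes. In eif5a1/2 against dhps 1 was higher and 2 were lower at that level, beside 14.5% of all genes. There DESeq2 called gsr, glutathione reductase, as lower (-0.48 ± 0.11, edgeR adjusted p = 0.0645). The median log2 fold change of the list was -0.28 in dhps against control, -0.11 in eif5a1/2 against control and 0.03 in eif5a1/2 against dhps.

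Marker genes of the yolk syncytial layer and liver were mostly lower in CPM in the dhps group. These tissues make selenoprotein P and other secreted proteins, though sepp1a itself had a mean of 385 CPM in dhps and 327 CPM in controls. Of 15 tested markers 14 had a negative log2 fold change in dhps against control. On the TPM scale, which lacks the TMM scaling, directions were mixed. There the dhps mean was above the control mean for apoa2, apoeb and apobb.1, among others, and below it for apoa1a and apoa4b.2, among others. In edgeR 8 of the 15 had an unadjusted p under 0.05 in dhps against control, beside 19.5% of all genes in either direction. There edgeR called 0, beside 1.29% of all genes. DESeq2, which called more of all genes than edgeR (counts in the closing section), called 5. The fit with limma-voom called 1, and its count over all genes is not given here. The summed level of the list was 20895 to 32761 CPM in controls, 16674 to 20123 CPM in dhps and 18480 to 34967 CPM in eif5a1/2, and ttr, a liver marker, was at 0 to 0.105 CPM throughout. Relative to dhps, all 15 were positive in eif5a1/2 and edgeR called 3 as higher, beside 0.934% of all genes. Erythrocyte markers summed to 2144 to 5242 CPM, 1296 to 2889 CPM and 1572 to 3016 CPM in the same order, with 10 of 11 negative in dhps against control. For these edgeR called 0 and gave 4 an unadjusted p under 0.05 (3 lower, 1 higher), beside 19.5% of all genes. DESeq2 called 1 and limma-voom 0. Their part in the levels of the selenoprotein genes was not tested, and in whole embryos fewer cells of a type and less RNA per cell cannot be told apart.

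The genes whose log2 CPM followed fep15 most closely over the 9 libraries were echs1 (Pearson r = 0.986), a gene listed only under a clone name (0.981), LOC100537384 (0.978), lims2 (0.976) and si:ch211-197h24.6 (0.974), of 17030 genes compared. In dhps against control their log2 fold changes ran from -1.39 for lims2 to -0.35 for si:ch211-197h24.6, all nearer to 0 than that of fep15. For alkbh8 they were zgc:154054 (0.979), si:ch211-210c8.6 (0.968), etf1b (0.965), lins1 (0.962) and itih2 (0.960). Of these, si:ch211-210c8.6, etf1b and zgc:154054 had log2 fold changes of 1.61, 1.25 and 1.09 in eif5a1/2 against control, beside 1.11 for alkbh8. Those of lins1 and itih2 were 0.56 and 0.28. These correlations share libraries, depth and the length slope, and are given as descriptions.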

How the data were processed

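RNA of 9 whole-embryo libraries was analysed, 3 in each of 3 groups taken from the sample titles. The authors deposited expected counts and TPM per gene, per the file headers, and tables of their own comparisons with log2 fold changes, p-values and q-values, and in 1 deposited table also −log10 q-values. The genome build was GRCz11, per the submitters' processing notes; the sources used here do not name the aligner, counter, annotation or strand setting. Expected counts were rounded before testing. Low genes were removed with filterByExpr, and the 17031 kept held 99.8% of reads or more in every library. After TMM scaling, 1 edgeR 4.0.16 quasi-likelihood fit with robust estimation (R 4.3.3) covered all 9 libraries, with 6 residual degrees of freedom and no covariate. Benjamini-Hochberg adjustment covered all tested genes, with a threshold of 0.05. The common biological coefficient of variation was 0.225. SE values are those of log2 fold changes. DESeq2 1.42.0, limma 3.58.1 on log2(TPM + 0.1), which understates changes of low genes, and limma-voom were alternatives.

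Implied length is the count divided by TPM, with the library scale removed, and was tested with limma on its log2 over 9506 genes. This measure, the robust setting's comparison, the TPM fit and the paired fit of 2 groups were added after the data were seen. The members and lists were chosen with earlier results of these data known. The text names the 6 genes, the targets, list genes that passed the threshold, the selenoproteins with the smallest adjusted p in each comparison, and the 5 genes most like fep15 and alkbh8. The list genes prdx2, gsr, sars, trit1, elp2 and ctu1 were chosen after their values were seen. The values of 1 list gene are not reported here. Deviations from group means of same-numbered control and eif5a1/2 libraries correlated at 0.403, 0.760 and 0.318 across genes, so the numbers, which come from the titles, were treated as pairs in that comparison. Control 3 with eif5a1/2 1 (0.597) and control 1 with eif5a1/2 3 (0.260) also correlated, so the paired calls rest on numbers that these data do not single out. They ran from -0.413 to 0.0988 for control and dhps and from -0.401 to 0.121 for dhps and eif5a1/2, which were not treated as pairs. The fits were tested on simulated data. No sequences or coordinates are given. Groups of 3 against 3 allow an exact permutation test no two-sided p below 0.1, so single values were not tested in that way.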

Additional observations from a re-analysis of the deposited data

How the results depend on the processing

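No log2 fold change of a reported gene that had been called in the main fit reversed under any of the alternatives run. Several that were not called in the main fit did change sign. In dhps against control that of gpx1b ran from -1.09 to 0.10 and that of sps2 from -0.45 to 0.35. In eif5a1/2 against control that of each gpx gene changed sign. That of alkbh8 in eif5a1/2 against dhps ran from -0.17 to 0.90 and passed the threshold in 7 of 22 settings. Counts of all genes called are given in the order dhps against control, eif5a1/2 against control, eif5a1/2 against dhps, where edgeR gave 220, 26 and 302. They were 898, 215 and 827 with DESeq2, 64, 5 and 75 at an adjusted p under 0.01, and 97, 14 and 133 with library totals alone. On log2 TPM they were 53, 2 and 83. The length slope as a covariate gave 1007, 804 and 1809, and the length slope with the replicate block 349, 496 and 1022. The replicate block alone gave 156, 14 and 183, the 2 compared groups alone 305, 5 and 156, and the paired block fit of eif5a1/2 and control 350. Without control 2 and eif5a1/2 2 together the counts were 6340, 176 and 4918. With 1 library left out they ran from 44 to 807, 5 to 19 and 66 to 850.

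Of the 6 genes, 1, 1 and 0 were called. The counts were 2, 1 and 3 with DESeq2, 0, 0 and 0 at 0.01, 1, 1 and 1 with library totals alone, with at least 1 CPM in 3 libraries and without robust estimation, 1, 0 and 0 with limma-voom, the replicate block or the 2 groups alone, and 1, 0 and 1 on log2 TPM. They were 3, 2 and 3 with the length slope, 1, 1 and 3 with the length slope and replicate block, 2 in the paired block fit, and 5, 1 and 6 without control 2 and eif5a1/2 2. With 1 library left out they ran from 0 to 2, 0 to 1 and 0 to 3. Of the other selenoproteins 0, 0 and 0 were called. DESeq2 gave 0, 1 and 0, the length slope 1, 2 and 4, the length slope with the block 0, 1 and 3, the paired block fit 1, and the fit without control 2 and eif5a1/2 2 gave 14, 1 and 12. Leaving out 1 library gave 0 to 0. The cause of these moves was not tested.

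The depth limits fep15 most, with 11 to 24 reads in the dhps libraries. The replicate block changed no other call of the 6 genes than those given.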
